A study of Mus musculus with 9 samples.

Results

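Matrix metalloproteinases (MMPs), membrane-bound proteases of the ADAM family, their secreted relatives of the ADAMTS family and the tissue inhibitors of metalloproteinases (TIMPs) were followed in mature megakaryocytes (mMKs) of irradiated mice. The members are the genes on the array whose symbol starts with Mmp, Timp, Adam or Adamts directly followed by a digit, leaving out symbols with the pseudogene mark -ps. The array held 79 such genes on 153 probes. Of these, 61 genes on 105 probes were kept, because in 1 or more of the groups every array showed a probe well above background, out of 29410 genes kept among 37325 named on the array. All 4 TIMP genes were kept, with 16 of 23 MMP genes, 15 of 19 ADAMTS genes and 26 of 33 ADAM genes. The rule used names and background, not a difference between groups, but it was chosen with earlier results of these data known. Of the 61 genes, 5 passed through a single group. On all 9 arrays, 50 of the 61 were well above background.

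MMPs are zinc-dependent proteases that cut collagens, gelatin and other matrix proteins, and most are made as inactive precursors. Several ADAM proteases cut the outer part off other membrane proteins, including receptors on platelets, while ADAMTS proteases are secreted and cut proteoglycans, procollagens or von Willebrand factor. TIMPs bind to the active site of these enzymes, and in bone marrow the families are known from neutrophils, macrophages, osteoblasts and stromal cells as well as from megakaryocytes.

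The mMKs came from the bone marrow of male mice that were either controls (Ctrl) or had received 5 Gy of gamma rays to the whole body 1 or 3 days earlier (1 dpi and 3 dpi, days post irradiation), with 3 arrays in each group from independent experiments on different donors. The methods name wild-type C57BL/6 mice and sham irradiation of the controls, while strain and age are not given for the array samples. Marrow was flushed from femur and tibia, and the cells were enriched by positive selection for CD41 and then CD42d, a pair of surface proteins of the megakaryocyte lineage. Total RNA was labelled with a single dye and hybridized to Agilent arrays.

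Levels are log2 spot intensities minus the 75th percentile of the same array, so that a level of 0 is that percentile. The members' levels were not compared between genes, since probes differ in brightness. The brightest gene of each marker list is named only because it weighs most in the summed signal. The number of arrays limits the precision, and with 3 arrays on either side no two-sided p below 0.10 can come from exact permutation. Of the spots, 69.1%, 79.5% and 80.8% were well above background on the Ctrl arrays, 72.3%, 74.8% and 75.6% at 1 dpi, and 81.8%, 81.6% and 81.8% at 3 dpi. Of the 105 member probes kept, 72.4%, 87.6% and 88.6% were above background on the Ctrl arrays, between 80.0% and 84.8% at 1 dpi and between 99.0% and 100% at 3 dpi. Ctrl replicate 1 thus had the lowest share on both measures, and it was the only array on its slide, the other 8 sharing another slide. The megakaryocyte markers were present, with 12 of 12 kept and 0 called by limma in any comparison. At an unadjusted p under 0.05, 2 of them were higher and 4 lower at 1 dpi, 5 higher at 3 dpi with 0 lower, and between 3 and 1 dpi 8 were higher and 1 lower.

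The first question is which members differed from Ctrl after irradiation. Genes were compared with limma over all 29410 genes, and a call needed a difference of 2-fold or more besides an adjusted p below 0.05. At 1 dpi 19 of the 61 members were called higher than in Ctrl, against 12.3% of all genes tested, and 3 were called lower, against 2.87% of all genes. The 19 include Adamts15, which was below background on all arrays of both groups and is left out of the 18 others. At 3 dpi 16 members were called higher, against 6.98% of all genes, and 0 lower, against 1.82%. The 16 include Adamts15, which passed the filter through the 3 dpi arrays alone. At an unadjusted p under 0.05 in limma 2 members were lower at 3 dpi, 0 of them by at least 2-fold, and the t-test that the methods name, adjusted over all genes and with the same 2-fold limit, also gave 0. Without that limit limma called both of the 2 lower. Of the 50 members above background on all 9 arrays, 15 were called higher at 1 dpi with 1 lower, while at 3 dpi the counts were 14 and 0. Of the 24040 genes under that filter 2521 were higher and 612 lower at 1 dpi, and 1289 and 441 at 3 dpi. Without Ctrl replicate 1 the count at 1 dpi was 15 higher and 5 lower, and at 3 dpi 16 higher and 0 lower. A fit with the slide as a block, which here equals a comparison within the shared slide, gave the same counts.

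Both comparisons share the Ctrl arrays, so their values are given side by side, and 34 of the 61 members were called in no comparison. The median log2 fold change of the 61 members was 0.58 at 1 dpi and 0.36 at 3 dpi. Over all genes the scaling left medians of 0.25 and 0.11, so that relative to all genes the members' medians were 0.33 and 0.25. The direction of calls at 1 dpi moved with the scaling. Before scaling the 1 dpi arrays were dimmer than the others. Their log2 75th percentiles ran from 9.33 to 9.45, against 10.03 to 10.66 in Ctrl and 10.37 to 10.55 at 3 dpi. In the main values 81.1% of all called genes were higher at 1 dpi, against 56.3% after quantile normalization and 48.8% with the array median as the reference, and the members called higher at 1 dpi numbered 13 under both. The 16 members called higher at 3 dpi were the same genes under both. By family, the median log2 fold changes at 1 dpi and 3 dpi were 0.65 and 0.72 for TIMP, 0.89 and 0.59 for MMP, 1.21 and 1.33 for ADAMTS, and 0.49 and 0.19 for ADAM genes. Without Ctrl replicate 1 the medians at 3 dpi were 0.64 for ADAMTS, 0.31 for MMP and 0.01 for ADAM genes. The order of the times thus turned for ADAMTS genes, whose median at 1 dpi was then 1.26. Over the MMP genes above background on all arrays the order turned as well, with 0.73 and 0.80. With the array median as the reference the medians at 1 dpi were 0.33, 0.57, 0.89 and 0.18, and in the deposited table both ADAM medians were below 0, at -0.02. In the same order of families, 1, 7, 8 and 3 genes were called higher at 1 dpi, and 1, 7, 7 and 1 at 3 dpi. These are 25.0%, 43.8%, 53.3% and 11.5% of each family's kept genes at 1 dpi and 25.0%, 43.8%, 46.7% and 3.85% at 3 dpi, and those of the ADAM genes were near the shares of all genes. No overlap between the arrays of both groups was seen for 46 members at 1 dpi, against 67.5% of all genes, and for 30 at 3 dpi, against 47% of all genes.

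**Figure D1:**
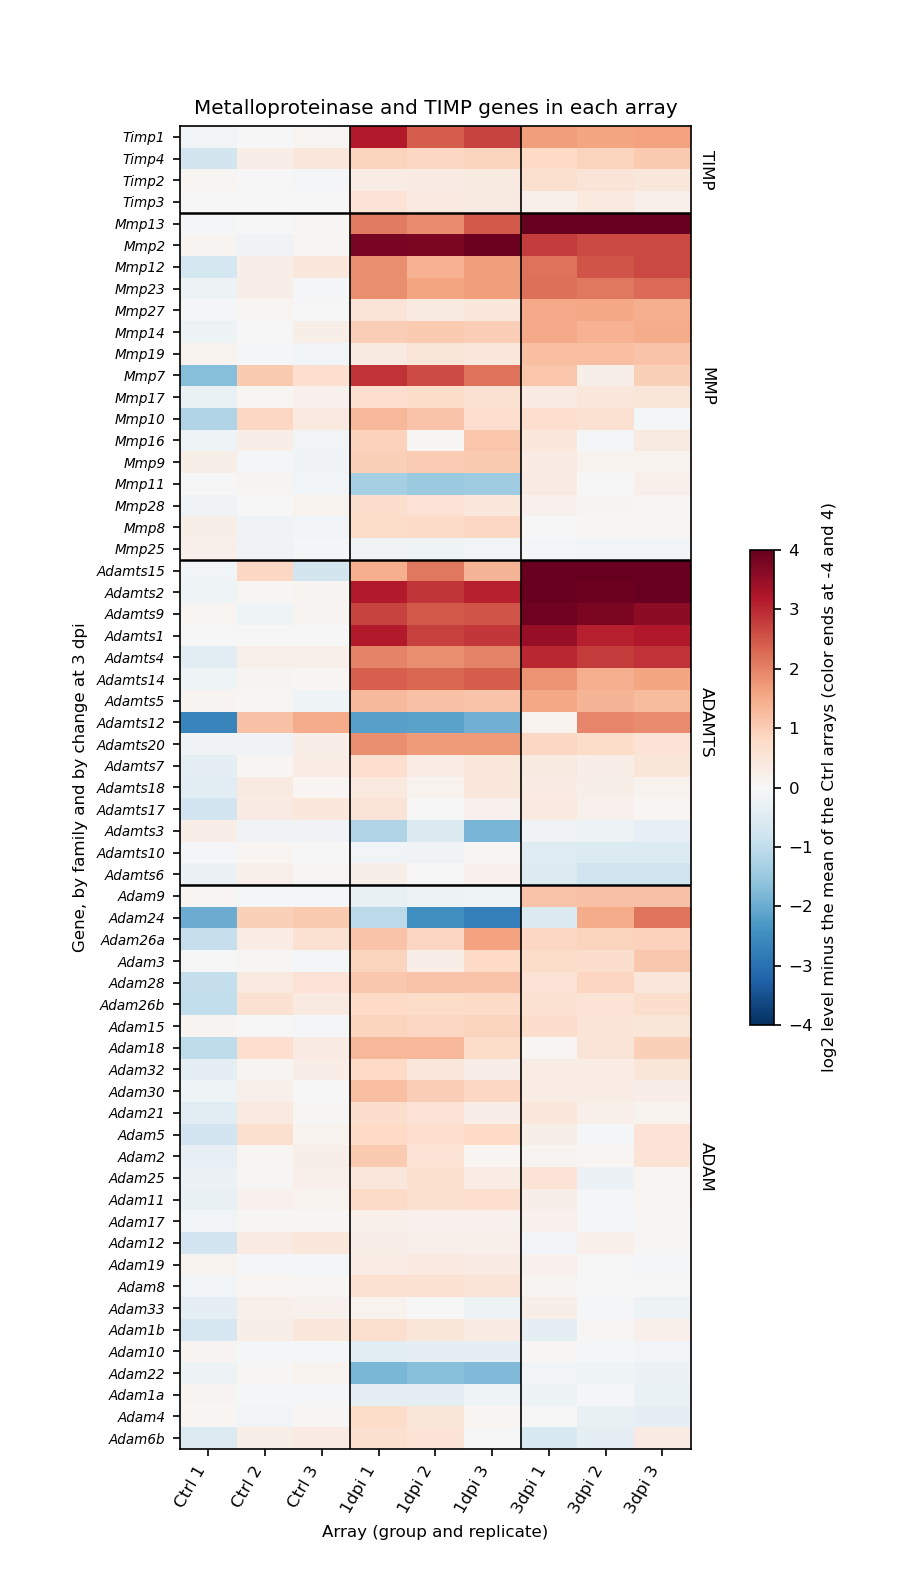
Level of each of the 61 members on each of the 9 arrays, as log2 level minus the mean of the Ctrl arrays, with genes grouped by family and ordered by the change at 3 dpi; red is higher and blue lower, and the color ends at -4 and 4. The dark red entries at 3 dpi are Mmp13, Adamts15, Adamts2 and Adamts9, and Ctrl replicate 1 is paler or bluer than the other Ctrl arrays for several genes, Adamts12, Adam24 and Mmp7 among them.

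The next question is how 3 dpi differed from 1 dpi. Here 9 members were called higher at 3 dpi, against 3.97% of all genes, and 3 lower, against 4.82%. The higher ones were Mmp13, Mmp11, Mmp27, Adamts9, Adamts12, Adamts15, Adam9, Adam22 and Adam24, and the lower ones were Timp1, Mmp2 and Adamts20. Adamts15 and Adam24 passed the filter through the 3 dpi arrays alone, so their calls here are in part set by it. Of the 50 members above background on all arrays, 6 were called higher and 3 lower, against 649 and 1127 of the 24040 genes under that filter. The median of the 61 was -0.14, or -0.03 relative to all genes, whose own median was -0.11. For 41 members the 1 dpi and 3 dpi arrays were fully apart, against 65.5% of all genes. With the array median as the reference 12 members were called higher and 1 lower, against 1743 and 851 of all 29410 genes.

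Among the inhibitors, only Timp1 was called in the main values. Timp1, a secreted inhibitor of most MMPs, was at -2.61, -2.48 and -2.40 on the Ctrl arrays, at 0.66, -0.07 and 0.22 at 1 dpi, and at -0.82, -0.93 and -0.90 at 3 dpi. Every irradiated array was above every Ctrl array, and all 1 dpi arrays were above all 3 dpi arrays. Timp1 rose by a log2 fold change of 2.77 (SE 0.17, adjusted p = 1.37e-05) at 1 dpi and by 1.61 (SE 0.17, adjusted p = 0.000250) at 3 dpi. From 1 to 3 dpi it fell by 1.15 (SE 0.17, adjusted p = 0.00129), a call that was lost without 1dpi replicate 1, where the value was -0.96, and with the array median as the reference, also at -0.96. The promoter of Timp1 is printed here since the gene was the only inhibitor called in the main values. It is the stretch of 250 bases before the annotated start, on the plus strand at chrX:20869916-20870165 of GRCm38.p6 from RefSeq, with capitals marking a match to GGGCGG on the reverse strand, 8 bases before the start.
Timp1: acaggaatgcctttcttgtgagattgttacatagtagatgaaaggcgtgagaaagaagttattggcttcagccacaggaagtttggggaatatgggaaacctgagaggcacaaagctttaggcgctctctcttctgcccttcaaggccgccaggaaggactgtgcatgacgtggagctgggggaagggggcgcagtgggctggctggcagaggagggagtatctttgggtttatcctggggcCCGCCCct

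Timp2, an inhibitor that also takes part in the activation of the Mmp2 precursor at the cell surface, was at 3.00, 2.92 and 2.82 on the Ctrl arrays, at 3.21, 3.24 and 3.27 at 1 dpi, and at 3.55, 3.44 and 3.38 at 3 dpi. In the main values the 3 groups did not overlap, but the differences stayed under 2-fold, with log2 fold changes of 0.33 (SE 0.07, adjusted p = 0.00630) at 1 dpi and 0.54 (adjusted p = 0.000903) at 3 dpi. Over the alternatives the value of Timp2 ranged from 0.016 to 0.65 at 1 dpi and from 0.42 to 0.74 at 3 dpi. Timp3, which binds to the matrix and also inhibits Adam17, was at 0.57, 0.53 and 0.56 in Ctrl, at 1.096, 0.95 and 0.90 at 1 dpi, and at 0.76, 0.93 and 0.76 at 3 dpi. All irradiated arrays were above the Ctrl arrays, and the 1 dpi and 3 dpi arrays overlapped. Its log2 fold change was 0.43 (adjusted p = 0.00253) at 1 dpi and 0.27 (adjusted p = 0.0325) at 3 dpi, and between 3 and 1 dpi it was -0.16, or 0.03 with the array median as the reference. Over the alternatives the value of Timp3 ranged from 0.11 to 0.61 at 1 dpi and from 0.14 to 0.30 at 3 dpi. Timp4 was at -4.88, -3.87 and -3.67 in Ctrl, with its lowest value on Ctrl replicate 1, at -3.26, -3.30 and -3.25 at 1 dpi, and at -3.34, -3.25 and -3.10 at 3 dpi. Its log2 fold changes of 0.87 (SE 0.28) and 0.90 (SE 0.28) were under 2-fold, but the gene was called at both times without Ctrl replicate 2, at 1.01 and 1.04, and without Ctrl replicate 3, at 1.104 and 1.14. Without Ctrl replicate 1 it was at 0.50 and 0.54 and not called. With the mean of its probes it was called at both times, at 1.23 and 2.10, and so it was in the table of log2 values that the authors deposited, at 1.59 and 3.22, where it was also called between 3 and 1 dpi, at 1.63 against 0.03. Its 3 probes, of which 1 was called at 1 dpi and 2 at 3 dpi, ranged from 0.70 to 2.12 and from 0.90 to 3.48.

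Of the gelatinases, Mmp2 is known mainly from stromal cells and Mmp9 from neutrophils and macrophages. Mmp2 was at -4.46, -4.72 and -4.52 in Ctrl, at -0.77, -0.79 and -0.64 at 1 dpi, and at -1.78, -1.94 and -1.93 at 3 dpi. The 3 groups were apart, with 1 dpi highest and Ctrl lowest. From the rise of 3.83 at 1 dpi it fell by 1.15 (SE 0.09, adjusted p = 8.16e-05) to 3 dpi, where it was still 2.68 above Ctrl (SE 0.09, adjusted p = 6.82e-07), and the step from 1 to 3 dpi was -0.96 and not called with the array median as the reference. Mmp9 was at 2.69, 2.36 and 2.29 in Ctrl, at 3.40, 3.46 and 3.495 at 1 dpi, and at 2.77, 2.60 and 2.59 at 3 dpi. The 1 dpi arrays were above all others, while the Ctrl and 3 dpi arrays overlapped. Its log2 fold change of 1.00 at 1 dpi (SE 0.11, adjusted p = 0.000234) lay just at the 2-fold limit. The call was lost without Ctrl replicate 2, at 0.96, without Ctrl replicate 3, at 0.93, after quantile normalization, with the array median as the reference, and with another background correction, normexp, at 0.49. Without 1dpi replicate 1, 2 or 3 or 3dpi replicate 1, the other probe was the brighter one, and the gene was at 0.57, 0.56, 0.55 and 0.56.

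Collagenases cut fibrillar collagen, and both kept ones, Mmp13 and Mmp8, differed in time course. Mmp13, a product of osteoblasts and stromal cells in bone, was at -3.56, -3.47 and -3.42 in Ctrl, at -1.40, -1.58 and -1.02 at 1 dpi, and at 0.49, 0.59 and 1.22 at 3 dpi. The groups were apart in the order Ctrl, 1 dpi, 3 dpi. It rose by 2.15 (SE 0.21, adjusted p = 0.000143) at 1 dpi and by 4.25 (SE 0.21, adjusted p = 4.84e-06) at 3 dpi, and the difference of 2.10 between both times was also called (adjusted p = 0.000249). Mmp8, stored in neutrophil granules, was at 5.10, 4.75 and 4.77 in Ctrl, at 5.60, 5.63 and 5.70 at 1 dpi, and at 4.89, 4.92 and 4.94 at 3 dpi. Here the 1 dpi arrays were again above all others, and the values of 0.77 (SE 0.10) at 1 dpi and 0.05 at 3 dpi were not called.

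Markers of cell types known to make these enzymes moved as follows, each given as a summed signal in which 1 is the array's 75th percentile. For their calls, the shares of all genes were 12.3% higher and 2.87% lower at 1 dpi, and 6.98% and 1.82% at 3 dpi. The neutrophil markers, all 10 kept, summed to 1160, 1252 and 1237 in Ctrl, 2051, 1909 and 1878 at 1 dpi and 1294, 1161 and 1224 at 3 dpi, with Mpo the brightest. At 1 dpi 2 of them were called higher, S100a8 and S100a9 (the latter not without Ctrl replicate 1 or 1dpi replicate 1, at 0.97 and 0.95), and 7 were higher at an unadjusted p, while at 3 dpi limma called 0 and an unadjusted p gave 1 higher and 1 lower. Their part in the values of Mmp8 and Mmp9 was not tested. The stromal markers, all 12 kept and Cxcl12 the brightest, summed to 10.4, 10.01 and 10.499 in Ctrl, 51.5, 44.4 and 48.3 at 1 dpi and 94.4, 86.2 and 92.8 at 3 dpi. The osteoblast markers, all 6 kept and Bglap the brightest, summed to 0.739, 1.09 and 1.05 in Ctrl, 2.42, 2.19 and 2.32 at 1 dpi and 3.87, 3.63 and 3.89 at 3 dpi. Dmp1, a marker of osteocytes on that list, was above background on 1 of 3 Ctrl arrays and on 0 of 3 at 1 dpi. Of the stromal markers 9 were called higher at 1 dpi and 8 at 3 dpi, and of the osteoblast markers 3 and 4. Dmp1 was among the 3 called at 1 dpi although it was not above background there, and its call was lost in each fit without 1 array but that without Ctrl replicate 2. At an unadjusted p 1 stromal marker was lower at each time and 1 osteoblast marker at 3 dpi. Both sums, in which bright genes weigh most, were lowest in Ctrl and highest at 3 dpi, while Lepr of the stromal list was highest at 1 dpi and Runx2 of the osteoblast list lowest at 3 dpi. The part of these cells in the results for Timp1, Mmp2, Mmp13 and the ADAMTS genes was not tested. In such bulk samples more or fewer cells of a type and more or less RNA per cell cannot be told apart.

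The promoter of Mmp13 is shown because the gene had the largest rise of the members above background on all 9 arrays. The stretch of 250 bases before its start lies on the plus strand at chr9:7272264-7272513 of GRCm38.p6. In capitals are a match to AACCACA, a motif that RUNX factors bind, 119 bases before the start, a match to TGANTCA (N is any base), the motif of AP-1 factors, 35 bases before it, and TATAAA, 16 bases before it.
Mmp13: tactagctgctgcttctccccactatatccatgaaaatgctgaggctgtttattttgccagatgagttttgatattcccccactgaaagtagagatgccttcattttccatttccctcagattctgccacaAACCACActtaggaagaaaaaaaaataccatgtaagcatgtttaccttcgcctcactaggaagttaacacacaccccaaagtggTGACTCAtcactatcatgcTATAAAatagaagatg

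Motifs were searched on both strands of the 250 bases, and no 2 of the matches shown share a base. RefSeq promoters were found by symbol for 36 of the 61 members and for 9 of the 13 that were called higher in each comparison with Ctrl. Among these 9, TGANTCA was found in 2 genes, Mmp13 and Mmp12, the latter at the other of its starts, 44 bases before it, TATAAA in 2, GGGCGG in 6 and AACCACA in 1. Of all 32851 promoters of this length, 6.75% held TGANTCA, 12.4% TATAAA, 32.7% GGGCGG and 4.4% AACCACA. Mmp2, Adamts4, Adamts5 and Adamts15 had no entry.

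The kept membrane-bound MMPs included Mmp14, which activates the Mmp2 precursor on the cell surface, and Mmp23. Mmp14 was at -4.67, -4.49 and -4.23 in Ctrl, at -3.48, -3.41 and -3.50 at 1 dpi, and at -2.96, -3.08 and -2.97 at 3 dpi. No groups overlapped, and the order was Ctrl, 1 dpi, 3 dpi. At 3 dpi Mmp14 rose by 1.46 (SE 0.11, adjusted p = 4.08e-05), but with normexp it was at 0.88 and not called. At 1 dpi its log2 fold change of 1.01 (SE 0.11, adjusted p = 0.000223) was called at the limit, but not without Ctrl replicate 1, at 0.90, without Ctrl replicate 2, at 0.99, without 1dpi replicate 2, at 0.98, or with the slide as a block, at 0.90. It was not called either after quantile normalization or in the deposited table, both at 0.63, with the array median as the reference, at 0.69, with normexp, at 0.93, or relative to the median of all genes, at 0.76. Mmp23 ranged from -5.00 to -4.56 in Ctrl, from -3.23 to -2.96 at 1 dpi and from -2.72 to -2.56 at 3 dpi, so that its groups were apart as well. It rose by 1.71 (SE 0.13, adjusted p = 3.62e-05) and 2.19 (SE 0.13, adjusted p = 1.07e-05).

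Mmp12, the macrophage elastase, was at -6.60, -5.63 and -5.44 in Ctrl, where 2 of 3 arrays were above background, at -4.02, -4.48 and -4.23 at 1 dpi, and at -3.70, -3.39 and -3.25 at 3 dpi. Its groups did not overlap, with log2 fold changes of 1.64 (SE 0.30, adjusted p = 0.00264) at 1 dpi and 2.44 (SE 0.30, adjusted p = 0.000570) at 3 dpi, but its 3 probes ranged from -0.19 to 1.64 and from 0.73 to 2.44, and in the deposited table of log2 values the gene was at -1.09 at 1 dpi and at 1.14, not called, at 3 dpi. With the mean of its probes it was at 0.82 and not called at 1 dpi. Between 3 and 1 dpi it was at 0.80, or at 1.04 and called after quantile normalization and at 2.23 and called in the deposited table. The macrophage markers, all 12 kept and Csf1r the brightest, summed to 62.8, 56.1 and 54.0 in Ctrl, 81.6, 76.7 and 80.7 at 1 dpi and 147, 144 and 142 at 3 dpi. At 1 dpi 4 of them were called higher and 1 lower, against 12.3% and 2.87% of all genes, and at 3 dpi 9 were called higher, against 6.98%. Their part in the values of Mmp12 was not tested.

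Mmp7, matrilysin, was at -6.17, -3.44 and -3.82 in Ctrl, with Ctrl replicate 1 below background, at -1.58, -1.87 and -2.30 at 1 dpi, and at -3.37, -4.24 and -3.52 at 3 dpi. The 1 dpi arrays were above all others. It rose by 2.56 (SE 0.67, adjusted p = 0.0134) at 1 dpi, or by 1.72 without Ctrl replicate 1, and was at 0.77 at 3 dpi, or at -0.07 without that array. The difference between 3 and 1 dpi was -1.79 (SE 0.67, adjusted p = 0.0620), and from -1.98 to -1.49 over the alternatives. It was called without Ctrl replicate 1 or Ctrl replicate 2, with the slide as a block, after quantile normalization, with the array median as the reference, with normexp, in the deposited table, with an intensity trend in limma, with only the 2 groups compared and with the t-test of the methods. That t-test did not call the rise at 1 dpi. Mmp11, stromelysin 3, went the other way at 1 dpi. Its levels were -3.52, -3.44 and -3.66 in Ctrl, -4.86, -5.02 and -4.95 at 1 dpi, and -3.21, -3.53 and -3.32 at 3 dpi, with the 1 dpi arrays below all others. It fell by 1.402 at 1 dpi (SE 0.10, adjusted p = 3.01e-05) and was higher by 1.59 at 3 dpi than at 1 dpi (SE 0.10, adjusted p = 3.47e-05), but with normexp these values were -0.18 and 0.29 and not called.

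At 3 dpi alone, Mmp19 and Mmp27 joined the called MMPs. Mmp19 was at 0.72, 0.53 and 0.45 in Ctrl, at 0.94, 1.07 and 0.98 at 1 dpi, and at 1.77, 1.78 and 1.71 at 3 dpi, where it rose by 1.19 (SE 0.08, adjusted p = 2.63e-05), while its other probe, at 0.57, was not called and the mean of its probes, at 0.88, was not either. Mmp27 was at -2.50, -2.37 and -2.46 in Ctrl, at -1.93, -2.09 and -2.03 at 1 dpi, and at -0.92, -0.90 and -1.001 at 3 dpi, where it rose by 1.503 (SE 0.07, adjusted p = 3.20e-06). Its difference of 1.08 between 3 and 1 dpi was 0.80 and not called with normexp. For both genes the 3 groups were apart, with 3 dpi highest. The other MMP genes kept, Mmp8, Mmp10, Mmp16, Mmp17, Mmp25 and Mmp28, were not called, although 2 of the 3 probes of Mmp16 were called higher at both times, and the gene was with the mean of its probes and in the deposited table. The brightest probe of Mmp16 passed the filter through the 3 dpi arrays alone, with 2 of 3 Ctrl arrays and 1 of 3 at 1 dpi above background. Its other probes were dimmer, so these calls rest in part on signal near background. A probe of Mmp28 was called higher at 1 dpi, at 1.4027, and Mmp10 was called higher there without Ctrl replicate 2.

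**Figure D2:**
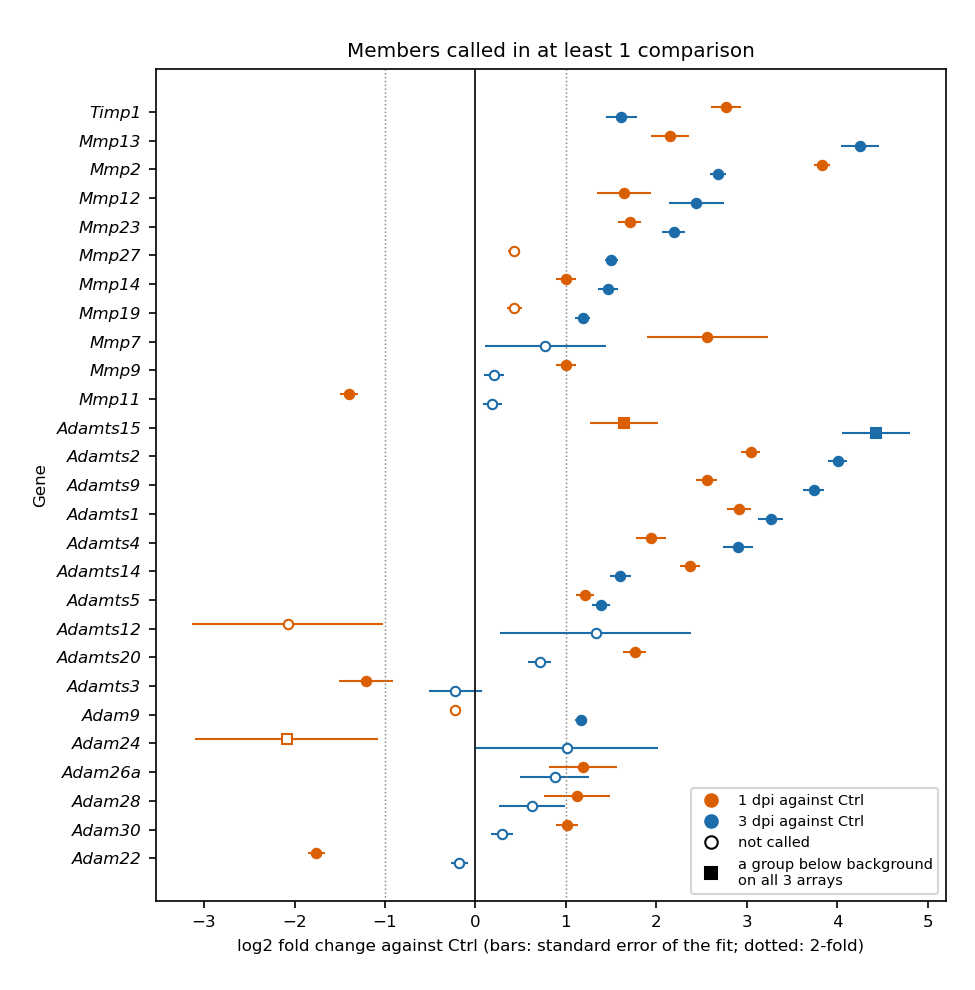
Log2 fold change against Ctrl at 1 dpi (orange) and 3 dpi (blue) for the 27 members called in at least 1 comparison, with the standard error of the fit as bars and 2-fold as dotted lines. Open symbols were not called, and squares are genes for which a group was below background on all 3 arrays. Mmp2 is farthest right at 1 dpi among the circles, at 3.83, and Mmp13 at 3 dpi, at 4.25. Adamts15 was below background on all arrays of Ctrl and 1 dpi, so its square at 1 dpi measures no size of a difference.

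Of the ADAMTS genes, 8 of 15 were called higher at 1 dpi and 7 of 15 at 3 dpi, or 7 and 6 of the 13 above background on all arrays. Among the called genes, Adamts1, Adamts4, Adamts5, Adamts9, Adamts15 and Adamts20 encode proteases that cut aggrecan or versican in the matrix, while Adamts8, another such protease, was above background on 0 of 9 arrays and was not kept. Adamts1 was at -4.25, -4.29 and -4.24 in Ctrl, at -1.10, -1.53 and -1.42 at 1 dpi, and at -0.78, -1.16 and -1.05 at 3 dpi. All irradiated arrays were far above Ctrl, and the 1 dpi and 3 dpi arrays overlapped. It rose by 2.91 (SE 0.13, adjusted p = 3.61e-06) and 3.26 (SE 0.13, adjusted p = 1.80e-06). Adamts9 was at -5.50, -5.73 and -5.47 in Ctrl, at -2.86, -3.13 and -3.05 at 1 dpi, and at -1.68, -1.81 and -2.00 at 3 dpi. Its groups were apart in that order, all 4 probes were called at both times, and it rose by 2.56 (SE 0.12, adjusted p = 3.54e-06) and 3.74 (SE 0.12, adjusted p = 5.18e-07). From 1 to 3 dpi the difference was 1.18 (SE 0.12, adjusted p = 0.000227), but it was not called with the mean of its probes, at 0.85, or with normexp, at 0.63.

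Adamts4 was at -5.86, -5.24 and -5.25 in Ctrl, at -3.46, -3.58 and -3.48 at 1 dpi, and at -2.42, -2.67 and -2.56 at 3 dpi. These groups did not overlap either, and the gene rose by 1.94 (SE 0.17, adjusted p = 7.27e-05) and 2.90 (SE 0.17, adjusted p = 1.02e-05), with its 3 probes from 0.97 to 1.94 and from 0.95 to 3.90. In the deposited table it was at 1.22 and not called at 1 dpi. Its 0.96 between 3 and 1 dpi was not called, but was after quantile normalization, at 1.17, with the array median as the reference, at 1.15, relative to the median of all genes, at 1.07, with the mean of its probes, at 1.02, without 3dpi replicate 2, at 1.02, and in the deposited table, at 2.45. Adamts5 ranged from -6.02 to -5.76 in Ctrl, from -4.71 to -4.56 at 1 dpi and from -4.58 to -4.32 at 3 dpi, above Ctrl on every irradiated array. It was at 1.21 (SE 0.10) at 1 dpi, or 0.68 after quantile normalization and 0.96 relative to the median of all genes, neither of them called, and at 1.39 (SE 0.10, adjusted p = 3.59e-05) at 3 dpi, with 3 probes from 0.40 to 2.49 and from 1.39 to 3.29. The call at 1 dpi was also lost with the array median as the reference and with normexp. With normexp the value at 3 dpi was 0.54 and the call was lost, and in the deposited table the values were -0.085 at 1 dpi, 3.13 at 3 dpi and, between the times, 3.22 and called, against 0.18 in the main values. Adamts20 was at -5.53, -5.53 and -5.14 in Ctrl, at -3.54, -3.70 and -3.68 at 1 dpi, and at -4.56, -4.65 and -4.86 at 3 dpi, so that 1 dpi was highest. It rose by 1.76 (SE 0.13, adjusted p = 3.24e-05) at 1 dpi, was at 0.71 at 3 dpi, and fell by 1.05 between them (SE 0.13, adjusted p = 0.000556), a call lost without 3dpi replicate 3, at -0.97, with normexp, at -0.99, after quantile normalization and with the array median as the reference, both at -0.86. Adamts15 was above background only on the 3 dpi arrays, at -3.97, -3.93 and -3.90. It passed the filter through that group alone, where it was highest, so its calls at 3 dpi are in part set by the filter. On the background as subtracted in the files it was at least 6.31-fold higher at 3 dpi than in Ctrl and at least 3.55-fold higher than at 1 dpi. With normexp the log2 values were lower than these bounds, at 1.14 and called against Ctrl and at 0.18 and not called against 1 dpi. No fold change between 1 dpi and Ctrl is given.

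Adamts2, Adamts3 and Adamts14 remove the amino-terminal propeptide of procollagens. Adamts2 was at -3.04, -2.84 and -2.76 in Ctrl, at 0.28, -0.02 and 0.23 at 1 dpi, and at 1.19, 1.03 and 1.16 at 3 dpi. The groups were apart, with 3 dpi highest. It rose by 3.04 (SE 0.11, adjusted p = 1.25e-06) and 4.004 (SE 0.11, adjusted p = 3.39e-07), and all 3 probes were called at both times, from 1.123 to 3.04 and from 1.07 to 4.004. The 0.96 between 3 and 1 dpi was under the 2-fold limit, but was called without 1dpi replicate 1 or 3dpi replicate 2, at 1.02 and 1.01, relative to the median of all genes, at 1.07, and with the array median as the reference, at 1.15. Adamts14 was at -3.19, -2.90 and -2.93 in Ctrl, at -0.62, -0.72 and -0.58 at 1 dpi, and at -1.22, -1.56 and -1.43 at 3 dpi. In contrast to Adamts2 its 1 dpi arrays were the highest, and it rose by 2.37 (SE 0.11, adjusted p = 4.16e-06) and 1.60 (SE 0.11, adjusted p = 2.86e-05) on a probe whose partner was called as well. Adamts3 was at -4.30, -4.70 and -4.71 in Ctrl, at -5.77, -5.14 and -6.44 at 1 dpi, where 1 of 3 arrays was above background, and at -4.72, -4.76 and -4.89 at 3 dpi. The 1 dpi arrays were below the others, and it fell by 1.21 (SE 0.30, adjusted p = 0.0101), while its other probe was at 0.09, the value without 1dpi replicate 3 was -0.88 and not called, and normexp gave 0.25. The call was also lost with the mean of its probes and with the t-test of the methods. Between 3 and 1 dpi it was at 0.99 and not called, but was after quantile normalization, at 1.28, with the array median as the reference, at 1.18, in the deposited table, at 1.28, relative to the median of all genes, at 1.0993, and without 1dpi replicate 2, at 1.31, while normexp gave -0.40.

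The promoters of Adamts1 and Adamts2 are printed as those of the matrix protease and of the procollagen protease with large rises at both times. They are the 250 bases before the start at chr16:85803114-85803363 on the minus strand and at chr11:50601835-50602084 on the plus strand of GRCm38.p6. Capitals mark matches to GGGCGG on either strand, a motif bound by Sp1 and related factors, at 147, 76 and 25 bases before the start of Adamts1 and at 229, 172, 75, 47 and 17 before that of Adamts2, as well as TATAAA 32 bases before the start of Adamts1.
Adamts1: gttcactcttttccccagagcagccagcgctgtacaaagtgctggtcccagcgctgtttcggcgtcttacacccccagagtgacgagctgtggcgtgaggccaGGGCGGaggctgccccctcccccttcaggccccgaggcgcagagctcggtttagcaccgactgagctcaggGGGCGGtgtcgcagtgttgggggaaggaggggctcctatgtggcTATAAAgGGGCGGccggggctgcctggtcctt
Adamts2: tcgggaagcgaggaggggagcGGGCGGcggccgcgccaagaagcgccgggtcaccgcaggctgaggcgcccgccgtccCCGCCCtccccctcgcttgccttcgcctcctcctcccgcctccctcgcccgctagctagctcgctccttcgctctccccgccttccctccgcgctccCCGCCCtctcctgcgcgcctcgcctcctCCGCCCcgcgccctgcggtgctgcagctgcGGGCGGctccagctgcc

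Adamts12 differed widely between the Ctrl arrays. It was at -5.77, -1.95 and -1.66 in Ctrl, at -5.30, -5.26 and -5.05 at 1 dpi, and at -2.98, -1.17 and -1.24 at 3 dpi. Ctrl replicate 1 was thus near the 1 dpi arrays, and the other Ctrl arrays near those at 3 dpi. At 1 dpi it was at -2.08 (SE 1.06, adjusted p = 0.127), or at -3.40 without Ctrl replicate 1 and at -2.57 after quantile normalization and in the deposited table, all of them called. The difference of 3.41 between 3 and 1 dpi was called (SE 1.06, adjusted p = 0.0327), but was not called without 1dpi replicate 1, 2 or 3 or 3dpi replicate 2 or 3, at 3.36, 3.38, 3.49, 3.09 and 3.13, and over all alternatives the value ranged from 1.62, with normexp, to 3.997. Adamts13, which cuts von Willebrand factor, was not kept, with 4 of 9 arrays above background on its best probe, 1 in Ctrl, 1 at 1 dpi and 2 at 3 dpi. The remaining ADAMTS genes kept were not called in the main values. At 1 dpi Adamts17 had 1 probe called higher and 1 lower, at 1.09 and -1.92, and was called lower in the deposited table, where it was called higher between the times. A probe of Adamts18 was called higher, at 1.33. Of these genes, Adamts6 and Adamts10 were lower at 3 dpi, at -0.72 (adjusted p = 0.00427) and -0.55 (adjusted p = 0.000833), and are the 2 members lower at an unadjusted p. The other probe of Adamts6 was called lower at both times, at -1.41 and -1.19, and 1 of the 5 probes of Adamts10 at 1 dpi, at -1.04. Both genes were called lower at 3 dpi in the deposited table.

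Of the ADAM proteases, Adam10 and Adam17 are the main enzymes that shed surface proteins, platelet receptors included. Adam10 was at 3.14, 2.98 and 2.97 in Ctrl, at 2.60, 2.66 and 2.66 at 1 dpi, and at 3.08, 2.94 and 2.91 at 3 dpi. The 1 dpi arrays were the lowest, and Ctrl and 3 dpi arrays overlapped. Its log2 fold change was -0.39 (SE 0.07, adjusted p = 0.00321) at 1 dpi, with its other probe at 0.75, and -0.05 at 3 dpi. The value at 1 dpi was 0.18 with the mean of both probes and 0.66 in the deposited table. Adam17 was at 0.74, 0.89 and 0.87 in Ctrl, at 1.03, 0.99 and 1.01 at 1 dpi, and at 1.00, 0.78 and 0.89 at 3 dpi. It was at 0.18 (SE 0.08, adjusted p = 0.0784) at 1 dpi and at 0.06 at 3 dpi, or at -0.14 and -0.06 with the array median as the reference, and its 3 probes ranged from -0.35 to 0.95 at 1 dpi. Neither gene was called in any comparison.

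Adam9, a membrane protease with a broad range of substrates, was the only ADAM gene called at 3 dpi. Its levels were 0.59, 0.48 and 0.49 in Ctrl, 0.22, 0.31 and 0.36 at 1 dpi, and 1.65, 1.70 and 1.70 at 3 dpi. The groups were apart, with 1 dpi lowest and 3 dpi highest. At 3 dpi it rose by 1.16 (SE 0.06, adjusted p = 8.10e-06), and it was 1.39 higher there than at 1 dpi (SE 0.06, adjusted p = 1.07e-05), while its -0.22 at 1 dpi was under the 2-fold limit. Adam8, a protease of leukocytes, was at 5.07, 5.26 and 5.22 in Ctrl, at 5.79, 5.81 and 5.70 at 1 dpi, and at 5.29, 5.21 and 5.18 at 3 dpi, and Adam15 was at 3.88, 3.74 and 3.68, at 4.67, 4.58 and 4.65, and at 4.48, 4.28 and 4.25. Both were highest at 1 dpi, at 0.58 (SE 0.07) and 0.87 (SE 0.08), and neither was called.

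Adam22, which lacks protease activity and is known from the nervous system, was at -3.99, -3.74 and -3.65 in Ctrl, at -5.62, -5.48 and -5.56 at 1 dpi, and at -3.91, -3.98 and -4.03 at 3 dpi. The 1 dpi arrays, of which 2 of 3 were above background, were below all others. It fell by 1.76 (SE 0.10, adjusted p = 7.50e-06) at 1 dpi and was 1.58 higher at 3 dpi than at 1 dpi (SE 0.10, adjusted p = 2.84e-05), but with normexp these values were -0.13 and -0.01 and not called. Adam24, known from testis, was at -7.30, -4.37 and -4.26 in Ctrl and at -5.90, -3.81 and -3.18 at 3 dpi, and was below background on all 1 dpi arrays. At 1 dpi it was not called against Ctrl in the main values. It was called lower there without Ctrl replicate 1, with the slide as a block, after quantile normalization, with the array median and in the deposited table. Adam24 passed the filter through the 3 dpi arrays alone, so its call between 3 and 1 dpi is in part set by it. On the same background it was at least 2.76-fold higher at 3 dpi than at 1 dpi, but with normexp the log2 value was 0.11, under that bound. The call between the times was lost with normexp, with the t-test of the methods, and without 1dpi replicate 2 or 3 or 3dpi replicate 2 or 3. Adam26a, Adam28 and Adam30 were called higher at 1 dpi, at 1.19 (SE 0.38, adjusted p = 0.0289), 1.1199 (SE 0.37, adjusted p = 0.0332) and 1.01 (SE 0.12, adjusted p = 0.000360). Adam26a was above background on 2 of 3 Ctrl arrays and on 1 of 3 at 1 dpi, so that its value is set mostly by signal near background. Without Ctrl replicate 1 these were 0.73, 0.64 and 0.92, and without 1dpi replicate 1 they were 1.22, 1.15 and 0.91, none of them called. Adam26a was not called without 1dpi replicate 3 either, at 0.99, Adam28 not without 1dpi replicate 2 or 3, at 1.102 and 1.11, or 3dpi replicate 1 or 3, and Adam30 not without Ctrl replicate 3, at 1.00 and just under 2-fold. None of the 3 was called after quantile normalization, with the array median as the reference, with normexp, with the slide as a block or relative to the median of all genes. Adam26a and Adam28 were not called with only the 2 groups compared or with the t-test of the methods either. The other 20 ADAM genes kept were not called in the main values, although Adam33 had 1 probe called higher and 1 lower at 1 dpi, at 1.16 and -1.19.

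**Figure D3:**
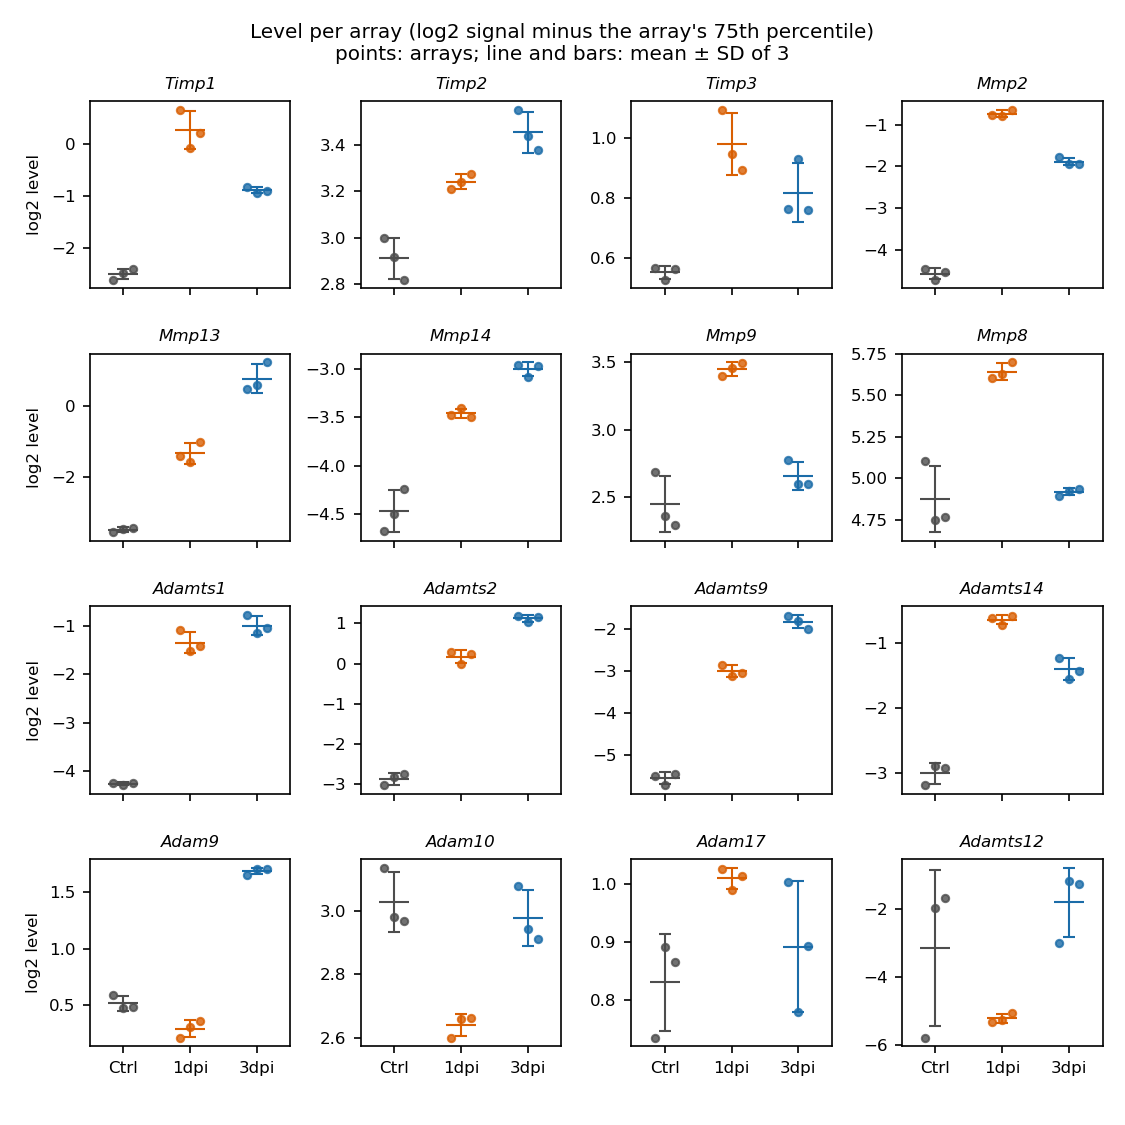
Level on each array for 16 members, as log2 intensity minus the 75th percentile of the array, with points as arrays and lines and bars as the mean and SD of the 3 arrays of a group; the vertical axes differ between genes. Timp1, Mmp2 and Adamts14 were highest at 1 dpi, Mmp13, Mmp14, Adamts2 and Adamts9 at 3 dpi, and for Adamts12 Ctrl replicate 1 lay near the 1 dpi arrays.

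Among the members just inside the filter, Adamts15 was above background on 3 of 9 arrays and Adam24 on 5. Just outside it were Adam39, on 6 of 9 arrays but 2 in each group, and Adamts13, on 4. In all 18 members were not kept, of which the collagenase genes Mmp1a and Mmp1b and the stromelysin gene Mmp3 were above background on 0 of 9 arrays. Counted by probe, 34 of the 105 member probes were called higher and 7 lower at 1 dpi, against 11.6% and 3.02% of all probes, and 30 higher and 1 lower at 3 dpi, against 6.58% and 1.86%. Between 3 and 1 dpi 18 were higher and 3 lower, against 3.75% and 5.03%. No called gene had a probe called in the other direction.

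Other genes that control or serve these enzymes were taken as lists. The shares of all genes to set beside their counts were 12.3% higher and 2.87% lower at 1 dpi, 6.98% and 1.82% at 3 dpi, and 3.97% and 4.82% between the times. Of 15 inhibitors and activators outside the families 13 were kept (A2m and Plat were not), with 4 called higher at 1 dpi, 5 at 3 dpi, and 1 higher and 1 lower between 3 and 1 dpi, at median log2 fold changes of 0.82, 0.74 and 0.28. None was called lower than Ctrl by limma, and an unadjusted p gave 2 lower at 1 dpi and 0 at 3 dpi. The proprotein convertase gene Pcsk6 rose by 2.06 (SE 0.33) and 3.38 (SE 0.33), and was 1.32 higher at 3 dpi than at 1 dpi. On Ctrl replicate 1 it was at -6.60, under the lowest level above background there, -6.22, so the size of its rises is in part set by signal not above background. Pcsk5, a related convertase, was called at both times, but no fold change is given since it was below background on all Ctrl arrays. Serpine2, a protease inhibitor, rose by 1.65 (SE 0.12) and 1.102 (SE 0.12). Plau, urokinase, rose by 1.096 (SE 0.08) at 3 dpi. Reck, a membrane-anchored inhibitor of MMPs, was at -0.52 (adjusted p = 0.00361) at 1 dpi and 0.04 at 3 dpi, and Furin, which activates precursors of several of these enzymes, was at 0.90 and 0.03, none of them called.

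The 9 partners that carry Adam10 and Adam17 to the surface or steer them were all kept. At 1 dpi limma called 0 of them, and an unadjusted p gave 4 higher and 1 lower, with Rhbdf1 at 0.93 (adjusted p = 0.000211) and Rhbdf2 at 0.91 (adjusted p = 0.000321), both of which steer Adam17. At 3 dpi 1 was called, Rhbdf1, at 1.203 (SE 0.10, adjusted p = 7.22e-05), and between 3 and 1 dpi Tspan10 was called higher, a tetraspanin gene that was below background on all 1 dpi arrays. On Ctrl replicate 1 Tspan10, at -6.64, was under the lowest level above background as well. It thus passed the filter through the 3 dpi arrays alone, which in part set its call. The medians of the list were 0.13, 0.36 and -0.02. Its 1 call of 9 at 3 dpi stands against 6.98% of all genes called higher, and that between the times against 3.97%.

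Of 16 substrates of Adam10 or Adam17, all kept, 5 were called higher at 1 dpi and 4 at 3 dpi, against 12.3% and 6.98% of all genes. The medians were 0.45, 0.46 and, between the times, -0.10. Limma called 0 lower than Ctrl and 0 between the times, where an unadjusted p gave 2 lower at 1 dpi, 2 lower at 3 dpi, and 5 higher and 6 lower between the times. Areg, an epidermal growth factor receptor ligand, rose by 2.21 (SE 0.22) and 2.96 (SE 0.22). Cx3cl1, a membrane-bound chemokine, rose by 2.23 (SE 0.15) and 1.88 (SE 0.15), with its other probe at 0.45 and 0.32. Tnf rose by 1.404 (SE 0.06) at 1 dpi and was at 0.49 at 3 dpi, and its receptor Tnfrsf1b rose by 1.17 (SE 0.11) at 1 dpi. The amyloid precursor gene App rose by 1.15 (SE 0.10) and the chemokine Cxcl16 by 1.13 (SE 0.15) at 3 dpi, the latter at 0.97 and not called without Ctrl replicate 1. The platelet receptor genes Gp1ba, Gp5 and Gp6, which are also on the megakaryocyte list, were at -0.82, -0.54 and -0.01 at 1 dpi and at 0.06, -0.28 and 0.95 at 3 dpi, none of them called.

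Of 15 relatives without protease activity or of the astacin family and their helpers, 14 were kept (Tll2 was not), with 5 called higher and 2 lower at 1 dpi, 2 higher at 3 dpi and 2 higher between the times, at medians of 0.74, 0.51 and -0.21. Pcolce, which enhances the removal of the carboxy-terminal propeptide of procollagen, rose by 1.81 (SE 0.13) and 2.57 (SE 0.13). Without Ctrl replicate 2 or 3 another probe was the brightest, at 2.75 and 2.77 at 1 dpi. Astl was at 1.58 (SE 0.50) and called at 1 dpi, but at 0.91 without Ctrl replicate 1, and its call was also lost without 1dpi replicate 1, 2 or 3, at 1.5050, 1.63 and 1.59. Thsd4, a fibrillin-binding protein, rose by 1.32 (SE 0.26) at 1 dpi, or by 1.02 without Ctrl replicate 1. Adamtsl3 fell by 2.30 (SE 0.43) at 1 dpi, with its other probe at 0.80, and was 2.19 higher at 3 dpi than at 1 dpi. Pcolce2 was below background on all 1 dpi arrays and, at -7.31, under the lowest level above background on Ctrl replicate 1. It thus passed the filter through the 3 dpi arrays alone, so its calls at 3 dpi are in part set by it. At 3 dpi it was at 1.56 (SE 0.46) and called, but not without Ctrl replicate 1 or 3, 1dpi replicate 2 or any 3 dpi array, at values from 1.23 to 1.73. Of 6 substrates of ADAMTS proteases, all kept, 2 were called higher at 1 dpi, 3 at 3 dpi and 1 between the times, at medians of 0.44, 1.15 and 0.10. For both lists the shares of all genes called higher were 12.3%, 6.98% and 3.97%, and 2.87% were called lower at 1 dpi. The proteoglycan genes Bcan and Vcan rose by 2.503 (SE 0.27) and 1.16 (SE 0.16) at 1 dpi and by 1.71 and 1.33 at 3 dpi, but Vcan was at 0.97 and not called at 1 dpi without Ctrl replicate 1. On that array Bcan was at -7.37, under the lowest level above background, -6.22, so the size of its rises is in part set by signal not above background. Acan, which encodes aggrecan, was at 1.55 (SE 0.41) and called at 3 dpi, but was not called without 3dpi replicate 1 or 3, at 1.51 and 1.36. On Ctrl replicate 3 and 1dpi replicate 3 it was under the lowest level above background. It thus passed the filter through the 3 dpi arrays alone, which in part set its call. Comp was 1.11 higher at 3 dpi than at 1 dpi, but was at 0.95 and not called without 3dpi replicate 3. The probes of Vcan reached 2.51 and 4.40. Vwf, the substrate of Adamts13 and a product of megakaryocytes, was at 0.06 and -0.05, with another probe at -1.34 at 3 dpi.

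The remaining marker lists were all kept in full. For their counts, the shares of all genes were 12.3% higher and 2.87% lower at 1 dpi, 6.98% and 1.82% at 3 dpi, and 3.97% and 4.82% between the times. The 12 megakaryocyte markers summed to 130, 117 and 116 in Ctrl, 128, 118 and 117 at 1 dpi and 141, 140 and 138 at 3 dpi, with Pf4 the brightest. The 9 endothelial markers, Stab1 the brightest, summed to 3.32, 2.98 and 3.06 in Ctrl, 10.8, 9.83 and 10.1 at 1 dpi and 17.96, 15.0 and 15.4 at 3 dpi, with 5 called higher at 1 dpi and 7 at 3 dpi, and 1 lower at 1 dpi at an unadjusted p. The megakaryocyte sums of Ctrl and 1 dpi overlapped and those at 3 dpi were above both, and the endothelial sums were apart in the 3 groups. The 8 B cell markers, Cd79b the brightest, summed to 27.4, 25.7 and 26.4 in Ctrl, 5.77, 5.53 and 5.69 at 1 dpi and 5.56, 5.41 and 5.41 at 3 dpi, with 7 called lower at both times and 1 higher at 1 dpi at an unadjusted p. The 8 T and NK cell markers, Nkg7 the brightest, summed to 29.8, 31.4 and 29.9 in Ctrl, 43.4, 40.6 and 40.9 at 1 dpi and 36.1, 32.6 and 31.9 at 3 dpi, with 1 called higher at 1 dpi and 3 at 3 dpi. That 1 of 8 at 1 dpi is near the share of all genes. The 8 erythroid markers, Hba-a1 the brightest, summed to 105, 85.4 and 88.6 in Ctrl, 245, 200.2 and 197 at 1 dpi and 33.5, 33.3 and 30.7 at 3 dpi, with 2 called higher and 5 lower at 1 dpi and 7 lower at 3 dpi. Between 3 and 1 dpi 6 stromal, 4 osteoblast, 1 endothelial, 7 macrophage, 3 B cell, 2 T and NK cell and 4 erythroid markers were called higher, 3 erythroid markers lower, and limma called 0 neutrophil markers, where an unadjusted p gave 1 higher and 8 lower. Of the osteoblast calls, that of Alpl was lost without 1dpi replicate 2 or 3dpi replicate 2. That of Dmp1, which passed the filter through the 3 dpi arrays alone, was lost without any 1 dpi or 3 dpi array. The part of these cells in the members' values was not tested.

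**Figure D4:**
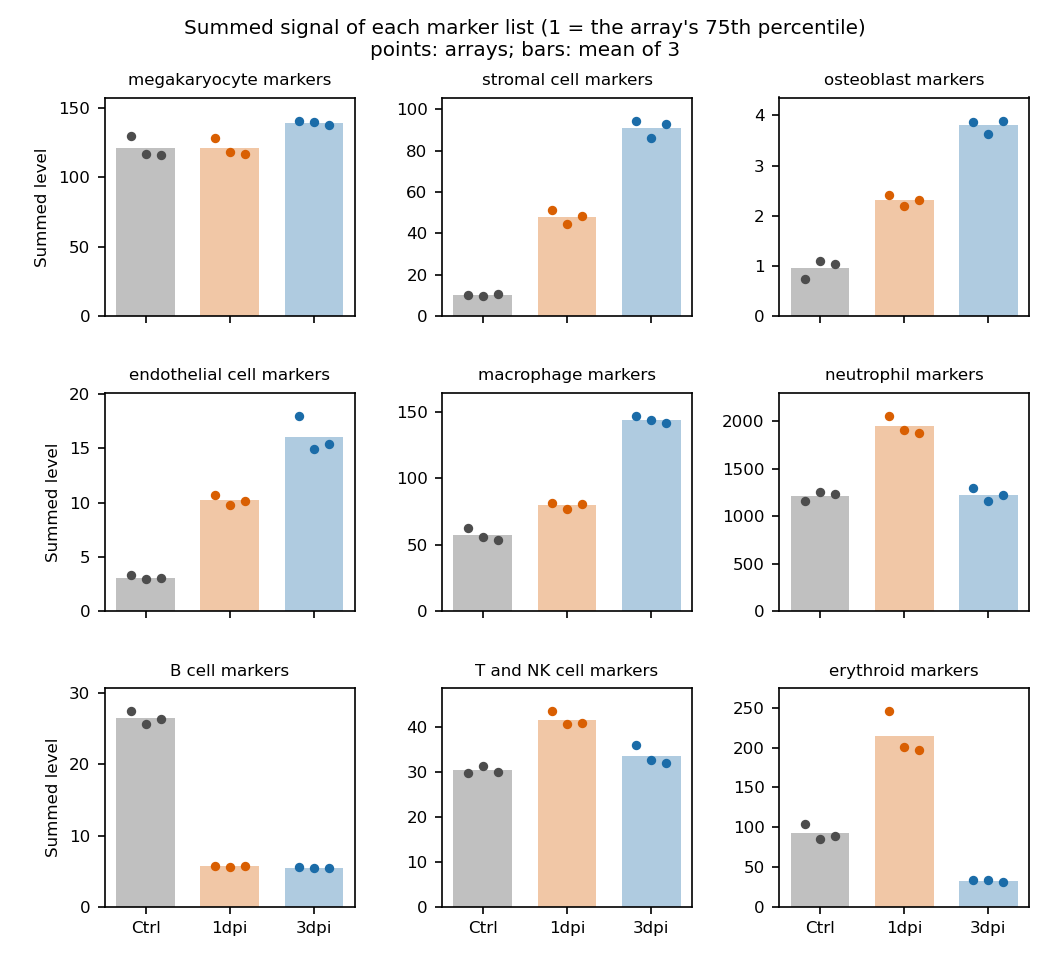
Summed signal of each of the 9 marker lists, where 1 is the 75th percentile of the array, with points as arrays and bars as the mean of the 3 arrays of a group; each axis starts at 0. The stromal, osteoblast, endothelial, macrophage and megakaryocyte sums were highest at 3 dpi, the neutrophil, erythroid and T and NK cell sums at 1 dpi, and the B cell sums in Ctrl.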

How the data were processed

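Gene expression was measured on 9 Agilent 1-colour arrays, 3 per group, although the paper's methods describe an Affymetrix chip. Per array, the authors deposited the output of Agilent Feature Extraction 10.7.1.1, in which each spot has an intensity with the background subtracted but no scaling between arrays. A deposited log2 table with a single value for each gene name and array, and array medians from 5.79 to 5.87, served as an alternative only. Of its 27275 names, 27072 occur on the array and 27062 could be tied to 1 probe within 0.1.

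An array has 62976 spots, 3671 of them controls, which were left out, as were spots marked as outliers. Spots of a probe were averaged, and 44300 of 56605 probes were kept, those for which 1 or more groups had every array well above background. Probes were named by the RefSeq accession in the files where that matched (32994 probes) and otherwise by the files' own gene name. No spot was saturated. The log2 intensity minus the array's 75th percentile was used. A gene with several probes was represented by its brightest, by mean over the 9 arrays. The comparisons come from limma 3.58.1 (R 4.3.3, data.table version 1.17.8), fitted with 3 group means in a single model and adjusted by Benjamini-Hochberg over 29410 genes. A gene was called at an adjusted p under 0.05 and at least 2-fold. SE is the standard error of that fit. Where a group had 0 of 3 arrays above background, the fold change is replaced by a bound, taken against the lowest signal above background or, if higher, against what the gene itself gave. The fit was also run on simulated data, whose outcome is not given here and supports no result. Alternatives changed the scaling, background correction, filter, probe choice, test, block or arrays used.

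The members and lists were chosen with earlier results of these data known. Named genes are all TIMP genes, Mmp2, Mmp9, Mmp14, Adam10, Adam17 and Adamts13, every other member called in at least 1 comparison (up to the 24 with the largest change in each), members just inside or outside the filter, the called genes of each pathway list, up to 4 with the largest change per comparison, and the brightest gene of each marker list with the markers not above background in a group. Mmp8, Adam8, Adam15, Adamts6, Adamts8, Adamts10, Mmp10, Mmp16, Mmp28, Adamts17, Adamts18, Adam33 and the list genes and markers named outside this rule were chosen after their values were seen. Values of 2 list genes that the rule would name are not reported here.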

Additional observations from a re-analysis of the deposited data

Results flagged for a closer look

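For 12 members the change against Ctrl differed between 3 dpi and 1 dpi, tested directly as the limma contrast of both times, which share the Ctrl arrays. On the log2 scale the difference between the effects was 3.41 for Adamts12 (from 1.62 to 3.997 over the alternatives, and not called without some single arrays), 2.10 for Mmp13, 1.59 for Mmp11, 1.58 for Adam22, 1.39 for Adam9, 1.18 for Adamts9 and 1.08 for Mmp27. It was -1.05 for Adamts20, -1.15 for Mmp2 and -1.15 for Timp1. With normexp Mmp11 (0.29), Adam22 (-0.013), Adamts9 (0.63), Mmp27 (0.80) and Adamts20 (-0.99) were not called, and with the array median as the reference Timp1 (-0.96), Mmp2 (-0.96) and Adamts20 (-0.86) were not. The fitted values of Adam24 (3.10) and Adamts15 (2.78) are set against signal not above background on any 1 dpi array, so they measure no size of a difference and are not to be ranked with the others, and the bounds are 2.76-fold and 3.55-fold, which were not reached with normexp, where neither was called. Both genes passed the filter through the 3 dpi arrays alone, where they were highest.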

How the results depend on the processing

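Leaving out 1 array at a time, the members called higher numbered 15 to 22 at 1 dpi, 16 to 17 at 3 dpi and 7 to 9 between 3 and 1 dpi, and those lower 2 to 5, 0 to 0 and 2 to 4. The 5 lower at 1 dpi came without Ctrl replicate 1, and equally with the slide as a block. Of the counts that moved by over 1.5 times, quantile normalization gave 5 lower at 1 dpi, and the array median 1 lower between 3 and 1 dpi. Of all 29410 genes these settings gave 1510 and 851. With normexp 12 were higher and 0 lower at 1 dpi, against 2458 and 341 of all genes, and 3 higher between the times, against 399. The deposited table, with 53 of the members, gave 12 higher and 9 lower at 1 dpi, against 1763 and 1741 of its 20059 genes. It gave 2 lower at 3 dpi, against 736, and 17 higher between the times, against 1640. Without the filter on dim probes 7 of 79 were lower between the times, near the share of all genes, 3289 of 37316. With probes above background on all arrays 1 of 50 was lower at 1 dpi, against 612 of 24040 genes. Without a minimum fold 32 were higher and 6 lower at 1 dpi, 2 lower at 3 dpi, and 17 higher and 15 lower between the times, as a looser rule gives more calls. Of all 29410 genes it gave 10249 and 6194, 4453, and 5815 and 7310, so that the 15 of 61 were near the share of all genes. The t-test of the methods at an unadjusted p, added after seeing the data, gave 31 and 6, 2, and 17 and 20. Of all 29410 genes that test gave 9169 and 6505, 5073, and 7009 and 9900, so that the 20 of 61 were near the share of all genes. For the other changes the cause was not tested.

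Over the alternatives, 2062 values of the TIMP genes, Mmp2, Mmp9, Mmp14, Adam10, Adam17 and the members called in a comparison kept both direction and call, 99 lost a call, 91 gained one and 21 uncalled ones changed sign. Calls that other members gained are not in this tally. Called values that changed sign were those of Adam22 between 3 and 1 dpi (-0.013) and Adamts3 at 1 dpi (0.25) with normexp, and of Adamts5 (-0.085) and Mmp12 (-1.09) at 1 dpi in the deposited table, and the cause was not tested. At 3 dpi the 16 members called higher were all called under quantile normalization, the array median, the slide block and each array left out. Normexp lost Adamts5 and Mmp14, the deposited table Mmp12, the mean of probes Mmp19, and the limit to probes above background on all arrays Adamts15 and Mmp12. Between 3 and 1 dpi normexp lost Mmp11, Mmp27, Adamts9, Adamts15, Adamts20, Adam22 and Adam24. Relative to the median of all genes, an alternative also added after seeing the data, 13 were higher at 1 dpi and 16 at 3 dpi. With the replicate number as a block, only Adam24 lost its call between the times. Arrays with the same number were not alike beyond their groups (r of -0.11 to 0.13 over genes), so the numbers were not taken as pairs. Signal over background limits the dim members. Ctrl replicate 1 had the lowest share of member probes above background. The lowest scaled level above background was higher on the 1 dpi arrays, from -5.90 to -5.52, than on the others, where it was -6.22 or lower.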
